A study of Mus musculus with 20 samples.

Results

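The transcripts described here belong to the transcription factor TFEB, its relatives TFE3 and MITF, the repressor ZKSCAN3 that opposes TFEB, and 6 proteins that decide whether TFEB sits in the cytoplasm or the nucleus. The list was made from these known roles and holds 10 mouse genes, namely Tfeb, Tfe3, Mitf, Zkscan3, Mtor, Rptor, Flcn, Rragc, Gsk3b and Ppp3cb. Of these, 8 were in the deposited table of 17651 genes, and Tfe3 and Mitf are not analysed here. The samples were ovaries of wild-type (WT) mice, 4 libraries in each of 5 groups. Old mice of 73 to 74 weeks had been given either the compound HEP14 (aged HEP14) or vehicle (aged). Mice of 27 to 28 weeks had been given HEP14 (adult HEP14) or belonged to the adult group, for which no vehicle is named. Young mice were 7 to 8 weeks old. Strain, dose, route and length of treatment are, in the sources used here, not given. The study was set up to ask which transcripts change in the aged ovary and how HEP14 shifts them.

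TFEB switches on genes for lysosomal enzymes, the lysosomal proton pump and autophagy by binding short CACGTG-containing elements near their start sites, and ZKSCAN3 represses an overlapping set of genes. The kinase complex mTORC1, which contains MTOR and its substrate adaptor RPTOR, phosphorylates TFEB on the lysosome and so holds it in the cytoplasm; the small GTPase RAGC presents TFEB to the complex, and folliculin (FLCN) activates RAGC for that step. The kinase GSK3B also phosphorylates TFEB, while calcineurin, whose catalytic subunits include PPP3CB, removes phosphates from it after calcium leaves the lysosome. HEP14, a compound known to turn on protein kinase C in cultured cells, was reported there to bring TFEB into the nucleus without inhibiting mTORC1, through inactivation of GSK3B, and to drive ZKSCAN3 out of the nucleus. All of these controls act on proteins, whereas the present data are transcript measurements.

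Each value is a score, meaning a gene's expression in 1 library minus the gene's mean over all 20 libraries, divided by its standard deviation over them. A difference of 1 is therefore 1 SD of that gene across the whole series and is not a fold change, and neither the expression level of a gene nor the read depth of a library can be read from the table. Score sizes cannot be ranked between genes as amounts of RNA. A gene was called higher or lower when the limma test fitted across all 17651 genes gave a Benjamini-Hochberg adjusted p of at most 0.05. The labels do not say whether libraries of 1 group came from separate animals, so the p-values measure the spread between these libraries, which may be partly technical. The 4 aged libraries stood apart from all others. Their median score over all genes lay between -0.624 and -0.279, against -0.159 to 0.018 in the other 16 libraries, and 1956 to 3697 genes per library sat at a lowest value shared with another library, against 686 to 1218 elsewhere. The median gene also varied more among the aged libraries (SD 0.867) than in any other group (0.279 to 0.462). No transcript of the list sat at such a shared lowest value in any library. Results that depend on these features are given below with the library medians set equal, with a separate variance for each group, or without the 2 aged libraries that had the most genes at a shared lowest value (aged libraries 1 and 2).

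In aged ovaries 7 of the 8 transcripts differed from young ovaries. Tfeb, Zkscan3, Mtor and Flcn were higher, Rptor, Gsk3b and Ppp3cb were lower, and Rragc was not called. Across the table, 74.3% of all genes were called in this comparison, 33.0% higher and 41.3% lower, so a call on its own does not set these genes apart. The libraries of the aged and young groups did not overlap for 5 of the 8 (Tfeb, Zkscan3, Mtor and Flcn above young, Gsk3b below), against 60.1% of all genes. The median difference of the 8 was 0.76 SD, and that of all genes was -0.41 SD. Dropping aged libraries 1 and 2 left 7 of the 8 called. Aged mice had been given vehicle, while none is named for the adult group or stated here for young mice. Age and vehicle therefore cannot be told apart where aged ovaries are set against younger ones.

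Against adult ovaries, 3 of the 8 were higher in aged ovaries (Tfeb, Zkscan3 and Flcn), 4 were lower (Rptor, Rragc, Gsk3b and Ppp3cb) and Mtor was not called. The background was 66.8% of all genes, 31.1% higher and 35.7% lower. The groups did not overlap for 5 of the 8, with Tfeb, Zkscan3 and Flcn above adult and Gsk3b and Ppp3cb below, against 49.6% of all genes. Mtor exceeded adult by 0.93 SD (adjusted p = 0.13), which was called without adult library 2 (1.42, adjusted p = 0.0238) and without aged library 3 (1.35, adjusted p = 0.0343). It shrank to 0.46 without aged library 2 and to 0.28 (adjusted p = 0.704) without aged libraries 1 and 2. This comparison shares the aged libraries with the first.

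In aged HEP14 ovaries 6 of the 8 differed from aged ovaries. Tfeb, Zkscan3 and Flcn were lower and Rptor, Gsk3b and Ppp3cb were higher, while Mtor and Rragc were not called. The background was again high, with 62.5% of all genes called, 33.2% higher and 29.3% lower. The groups did not overlap for 4 of the 8 (Tfeb, Zkscan3 and Flcn below aged, Gsk3b above), against 46.4% of all genes. This comparison shares the 4 aged libraries with the one before, so the values of each gene are set side by side and the signs are not counted as agreement or reversal. Calls fell to 5 of 8 without aged libraries 1 and 2, Ppp3cb being lost, and to 2 of 8 when each gene's scores were replaced by ranks, which kept Zkscan3 and Gsk3b. On ranks the count over all genes was 6428, against 11031 on scores.

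**Figure D1:**
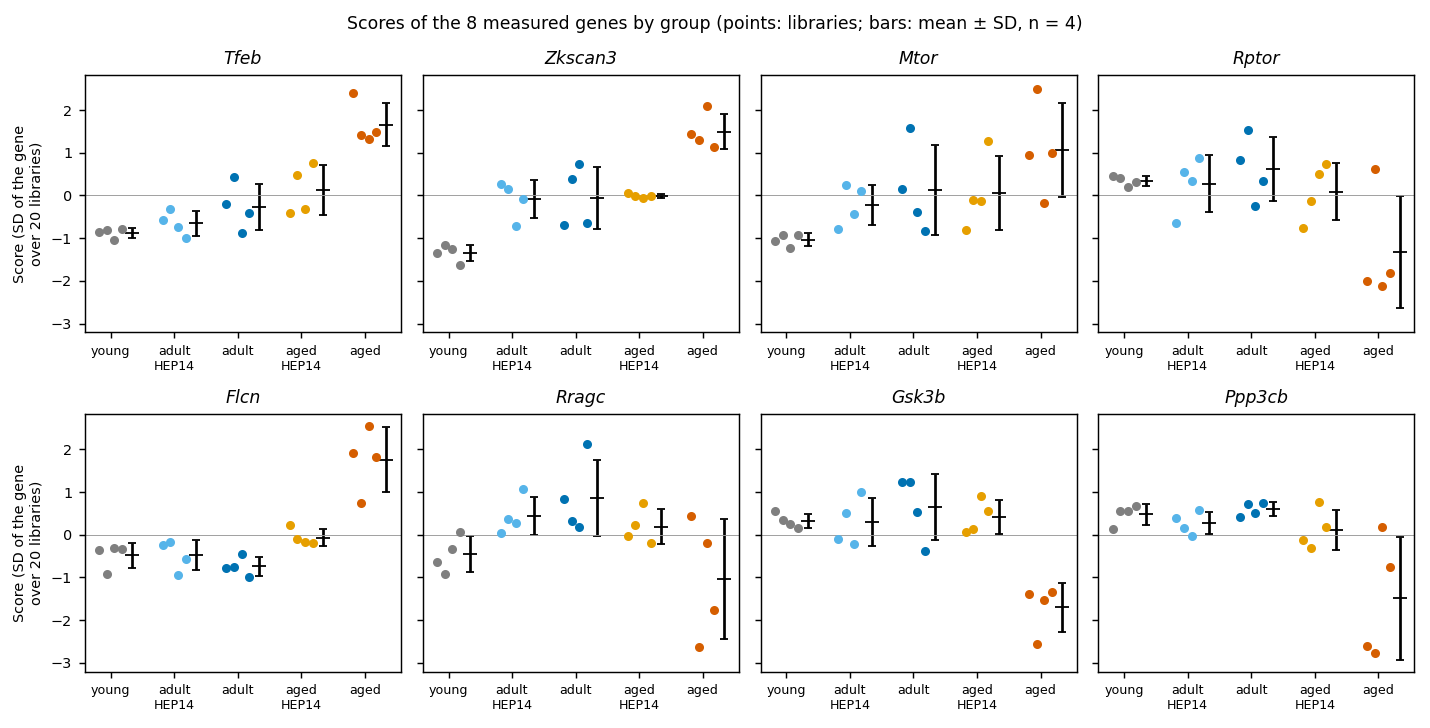
Scores of the 8 measured genes in each library (points) with the group mean and SD (bars, n = 4), in SD of the gene over 20 libraries, with the groups along the horizontal axis. The aged points of Tfeb, Zkscan3 and Flcn lie above those of every other group and those of Gsk3b lie below, while for Rragc the aged points run from -2.64 to 0.43 and overlap young.

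Tfeb itself lies on chromosome 17 (GRCm38, 47737030 to 47792419, plus strand, ENSMUSG00000023990). Its score was 2.40, 1.41, 1.33 and 1.49 in the aged libraries, against -0.85, -0.80, -1.04 and -0.79 in the young ones. Every aged library was above every young library, and aged library 1 was the highest of all 20. The means were 1.66 ± 0.50 in aged and -0.87 ± 0.12 in young (SD, n = 4 each), a difference of 2.53 SD (SE 0.34, adjusted p = 2.54e-06), larger in size than that of 88.8% of all genes. With library medians set equal the difference was 2.95. Adult ovaries lay in between, at -0.20, 0.43, -0.87 and -0.41. Aged exceeded adult by 1.92 SD (adjusted p = 6.81e-05), whereas the adult against young difference of 0.61 was not called (adjusted p = 0.266).

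HEP14 went with less Tfeb in old ovaries. The aged HEP14 libraries scored -0.41, 0.48, -0.32 and 0.75, all below the 4 aged libraries, with a mean of 0.12 ± 0.58 (SD, n = 4). The difference from aged was -1.53 SD (SE 0.34, adjusted p = 0.000724), and it was -1.29 (adjusted p = 0.00617) without aged libraries 1 and 2. On ranks it was not called (adjusted p = 0.102). Each aged HEP14 library was still above each young library, by 0.99 SD on the means, which just missed the threshold with the pooled variance (adjusted p = 0.0544) and passed it with a variance for each group (adjusted p = 0.00611). Ordered by mean, Tfeb ran from young through adult HEP14, adult and aged HEP14 to aged. Only the step from aged HEP14 to aged separated neighbouring groups without overlap.

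Of the other family members, Tfec was in the table. It encodes the macrophage-enriched relative of TFEB. Its scores were 3.44, 0.17, 1.70 and 0.80 in aged libraries and -0.53, -0.58, -0.66 and -0.83 in young ones, a difference of 2.17 SD (adjusted p = 0.000342). Aged library 1 was far above the others. In aged HEP14 ovaries Tfec was 1.86 SD lower than in aged ones (difference -1.86, adjusted p = 0.00181), at -0.47, -0.63, -0.085 and -0.15. The aged HEP14 libraries overlapped the young ones.

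The genes of the table whose scores followed Tfeb most closely over the 20 libraries were Sh3d21 (Pearson r = 0.96), Herc6 (0.955), Samd9l (0.955), Shank3 (0.953) and Zrsr1 (0.952). After the group means were removed their r to Tfeb was 0.71, 0.80, 0.73, 0.76 and 0.69. These 5 genes were picked for a high r over the same libraries, so both sets of values describe them and test nothing. Among the list's own genes, Flcn (0.80), Zkscan3 (0.776) and Mtor (0.73) followed Tfeb over all libraries, and after removal of group means r was -0.041 for Flcn, -0.047 for Zkscan3 and 0.509 for Mtor. Rragc (-0.355), Rptor (-0.545), Gsk3b (-0.677) and Ppp3cb (-0.753) ran against Tfeb over all libraries. After removal of group means their r was 0.104, 0.189, 0.224 and -0.314, so only Ppp3cb stayed negative. Over all libraries, 88.6%, 86.5% and 82.9% of all genes had a lower r to Tfeb than Flcn, Zkscan3 and Mtor. For Rragc, Rptor, Gsk3b and Ppp3cb these shares were 42.4%, 31.8%, 21.4% and 14.4%. These values describe 20 libraries whose spread is dominated by the 4 aged ones, and no p is attached to them.

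Zkscan3, which encodes a zinc finger repressor of autophagy and lysosome genes, lies on chromosome 13 (21387003 to 21402755, minus strand, ENSMUSG00000021327). It had the largest aged against young difference of the 8 genes, in SD of the gene. The aged libraries scored 1.45, 1.31, 2.09 and 1.14, and the young ones -1.34, -1.16, -1.26 and -1.62. The 2 groups lay far apart, and the adult libraries (-0.69, 0.39, 0.73 and -0.65) fell between them without overlap with either. The aged against young difference was 2.84 SD (SE 0.34, adjusted p = 5.93e-07), larger in size than that of 99.4% of all genes, and it was 2.96 without aged libraries 1 and 2. Aged exceeded adult by 1.55 SD (adjusted p = 0.000491).

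Zkscan3 was also the 1 gene of the 8 called in adult against young (1.29 SD, adjusted p = 0.0231), where the calls took in 9.92% of all genes (2.75% higher, 7.17% lower). That call depended on single libraries. It missed the threshold without young library 1 (adjusted p = 0.062), 3 (0.05, just over the limit) or 4 (0.0529), and without adult library 2 (0.0817) or 3 (0.0663). Mtor and Rragc, like Zkscan3, had every adult library above every young one, so 3 of 8 did not overlap, against 28.3% of all genes. With a variance for each group all 3 of these genes were called.

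HEP14 went with lower Zkscan3 in old ovaries and with very little spread. The aged HEP14 libraries scored 0.062, -0.012, -0.063 and -0.02, an SD of 0.052 against 0.42 in aged ovaries. The difference from aged was -1.50 SD (SE 0.34, adjusted p = 0.000753), and it was -1.62 without aged libraries 1 and 2. Unlike Tfeb, Zkscan3 was still called against young ovaries (1.34 SD higher, adjusted p = 0.0117), the 1 gene of the 8 called in that comparison, where the calls took in 15.9% of all genes (5.38% higher, 10.5% lower). Tfeb, Mtor and Flcn also had every aged HEP14 library above every young one, so 4 of 8 did not overlap, against 33.2% of all genes. The aged HEP14 mean of -0.0083 was close to the adult mean of -0.057, and the libraries of those groups overlapped.

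**Figure D2:**
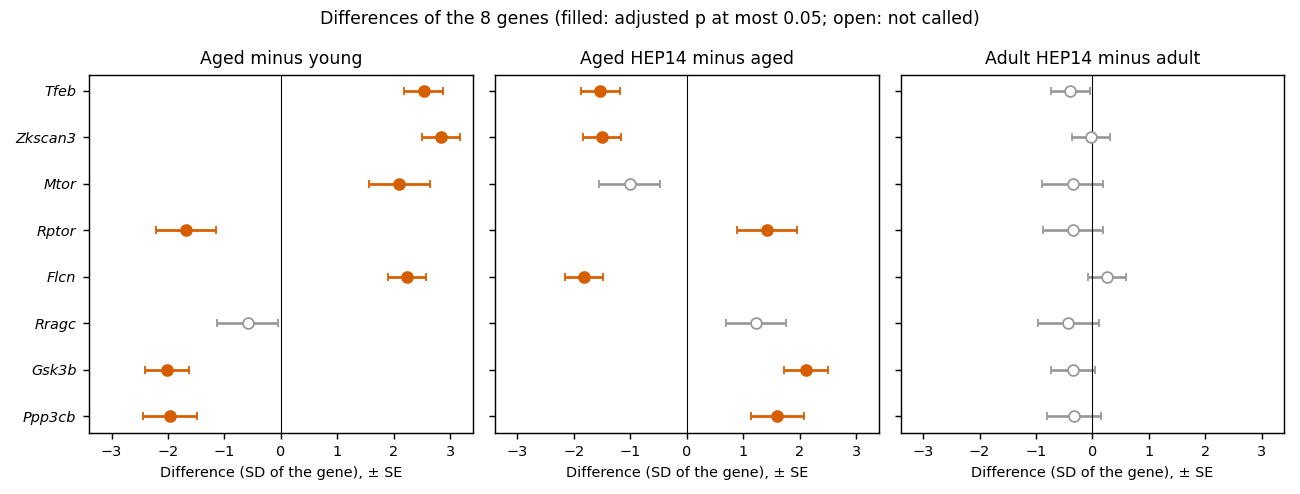
Differences of the 8 genes (points, in SD of the gene) with their standard errors (bars), for aged minus young, aged HEP14 minus aged and adult HEP14 minus adult. Filled points passed an adjusted p of 0.05: 7 genes in the left panel, 6 in the middle panel and none in the right panel, where differences ran from -0.43 (Rragc) to 0.26 (Flcn).

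The kinase gene Mtor and its partner Rptor differed in opposite directions between aged and young ovaries. Mtor (chromosome 4, 148448611 to 148557683, plus strand, ENSMUSG00000028991) scored 0.94, 2.50, -0.17 and 0.99 in aged libraries and -1.06, -0.92, -1.23 and -0.92 in young ones. All aged libraries were above all young ones, but they spread widely. The difference was 2.10 SD (SE 0.54, adjusted p = 0.00169), and 1.44 (adjusted p = 0.0385) without aged libraries 1 and 2. Rptor (chromosome 11, 119602905 to 119899576, plus strand, ENSMUSG00000025583) scored -2.01, 0.63, -2.13 and -1.82 in aged libraries and 0.46, 0.42, 0.19 and 0.31 in young ones. Aged library 2, the highest for Mtor, was above every young library for Rptor as well, and the other 3 aged libraries were far below. Rptor was 1.68 SD lower on the means (difference -1.68, SE 0.53, adjusted p = 0.00784), not called on ranks (adjusted p = 0.184). An antisense transcript, Rptoros, overlaps Rptor exons and is also in the table, and the strand setting of the counting is, in the sources used here, not given, so reads of the pair cannot be told apart.

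Under HEP14 in old mice, Mtor scored -0.80, -0.12, -0.12 and 1.27, overlapping aged. Its difference from aged of -1.01 SD was not called (adjusted p = 0.107), but was called with library medians set equal (-1.38, adjusted p = 0.0399) and without aged library 3 (-1.42, adjusted p = 0.0281) or aged HEP14 library 4 (-1.41, adjusted p = 0.0329). It shrank to -0.53 without aged library 2 and to -0.35 (adjusted p = 0.632) without aged libraries 1 and 2. Rptor scored -0.76, -0.12, 0.50 and 0.73 in aged HEP14 ovaries, and its difference from aged of 1.42 (SE 0.53, adjusted p = 0.0254) was a weak call. It was lost with medians set equal (1.05, adjusted p = 0.105), with a variance for each group (adjusted p = 0.102), with only the aged and aged HEP14 libraries fitted (adjusted p = 0.107), on ranks (adjusted p = 0.209) and without aged library 1, 3 or 4 or aged HEP14 library 3 or 4 (adjusted p up to 0.0818).

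Other genes of the mTOR complexes and of the TSC switch that restrains them were counted from a list of 15, of which 10 were in the table. In aged against young ovaries 5 were higher and 3 lower, with a median difference of 0.89 SD, and in aged HEP14 against aged ovaries 2 were higher and 4 lower, with a median of -0.89 (all genes: -0.41 and 0.31). Over all genes, 33.0% were higher and 41.3% lower in the first comparison, and 33.2% higher and 29.3% lower in the second, against which this and the later list counts are to be read. With library medians set equal, 6574 genes were called higher and 6313 lower in the first, and 4639 higher and 5965 lower in the second. The balance of the background thus depended on the library medians. The list counts are for the scores as deposited. Tsc1 and Tsc2 encode the partners of the complex that switches mTORC1 off. Tsc1 scored 2.07, 1.61, 1.35 and 2.08 in aged libraries and 0.14, -0.28, 0.10 and -0.29 in young ones, a difference of 1.86 SD (adjusted p = 3.22e-05). In aged HEP14 libraries it scored -0.86, -0.88, -0.20 and -0.97, which is 2.51 SD below aged (difference -2.51, adjusted p = 3.28e-06). Tsc1 thus had no overlap between aged and either group. Tsc2 was likewise highest in aged ovaries, with differences of 2.30 (adjusted p = 1.35e-05) and -2.20 (adjusted p = 3.56e-05), although it overlaps the exons of Pkd1 on the other strand. Telo2, whose product helps to assemble mTOR kinases, differed by 2.26 (adjusted p = 9.46e-07) and -2.25 (adjusted p = 3.02e-06). Rictor, which marks the second mTOR complex, was called in neither (0.20, adjusted p = 0.793, and 0.74, adjusted p = 0.329). Its sign in both depended on which aged libraries were kept, and so did the calls. Aged against young was called without aged libraries 1 and 2 (1.71, adjusted p = 0.0141). Aged HEP14 against aged was called without aged library 3 (1.51, adjusted p = 0.025).

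In the amino acid sensing branch upstream of mTORC1 (GATOR, KICSTOR and sestrins), 15 of 16 listed genes were in the table. In aged against young ovaries 7 were higher and 6 lower (median 0.59 SD), and in aged HEP14 against aged ovaries 5 were higher and 9 lower (median -1.70). The whole table had 74.3% and 62.5% of genes called. Wdr24, a GATOR2 subunit, differed by 2.34 (adjusted p = 3.13e-07) and -2.21 (adjusted p = 2.36e-06). Of the AMPK list, all 7 were in the table, 3 higher and 2 lower in aged against young ovaries, and 3 higher and 3 lower in aged HEP14 against aged ovaries, against 74.3% and 62.5% of all genes called. Its leading genes were Prkag1, a regulatory subunit (2.73, adjusted p = 1.66e-07, and -1.83, adjusted p = 1.16e-05), and Stk11, the kinase that activates AMPK (2.29, adjusted p = 6.49e-07, and -2.09, adjusted p = 4.39e-06).

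Flcn (chromosome 11, 59791408 to 59810016, minus strand, ENSMUSG00000032633) encodes folliculin, the activator of RAGC, and set aged ovaries apart from all other groups. It scored 1.91, 0.73, 2.56 and 1.83 in aged libraries, against -0.35, -0.92, -0.31 and -0.33 in young and -0.77, -0.75, -0.44 and -0.99 in adult ones. No aged library overlapped either younger group, whose own difference was small (adult against young -0.26, adjusted p = 0.66). Aged exceeded young by 2.23 SD (SE 0.33, adjusted p = 7.17e-06) and adult by 2.50 (adjusted p = 2.88e-06). In aged HEP14 ovaries Flcn scored 0.22, -0.10, -0.17 and -0.20, all below aged, a difference of -1.82 (SE 0.33, adjusted p = 0.000104). That call held without aged libraries 1 and 2 (-2.26) and with a variance for each group (adjusted p = 0.00239), but not on ranks (adjusted p = 0.187). Each aged HEP14 library remained above each young library, by 0.41 on the means, which was not called (adjusted p = 0.416).

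Rragc (chromosome 4, 123917446 to 123936997, plus strand, ENSMUSG00000028646) varied widely among the aged libraries. Its aged libraries scored 0.43, -2.64, -0.20 and -1.76, against -0.63, -0.91, -0.34 and 0.059 in young ones. The groups overlapped, and the difference of -0.59 SD (SE 0.54) was not called (adjusted p = 0.328). Adult libraries were higher, at 0.83, 0.33, 0.17 and 2.13, so that aged against adult was called (-1.91, adjusted p = 0.00408), although not when only those 2 groups were fitted (adjusted p = 0.0586). The aged HEP14 libraries scored -0.033, 0.22, 0.74 and -0.18, a difference from aged of 1.23 (adjusted p = 0.0526). This sat at the threshold, and it was called when aged library 1 (1.72, adjusted p = 0.00691) was left out, as also when aged library 3 was (1.51, adjusted p = 0.0277). It shrank to 0.70 without aged library 2, and to 0.86 (adjusted p = 0.176) with library medians set equal. A gene on the other strand, 4930535I16Rik, overlaps Rragc exons.

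Rraga, the gene of a Rag GTPase that pairs with RAGC, scored -1.68, -2.07, -2.10 and -1.72 in aged libraries and 0.75, 0.65, 0.47 and 0.80 in young ones, a difference of -2.56 SD (adjusted p = 1.65e-07). Rragb differed by -2.45 (adjusted p = 1.98e-05). Rragd differed by -1.16 (adjusted p = 0.0298), a call lost with medians set equal (-0.73, adjusted p = 0.149) and without aged library 1 (-0.67, adjusted p = 0.141), among other choices. All 3 were higher in aged HEP14 than in aged ovaries, by 2.07 for Rraga (adjusted p = 2.4e-06), 1.87 for Rragb (adjusted p = 0.000465) and 1.55 for Rragd (adjusted p = 0.00666, or 0.0582 with a variance for each group). Lamtor1, which anchors the Rag GTPases to the lysosome as part of Ragulator, was likewise lower in aged than young (-2.37, adjusted p = 1.16e-06) and higher in aged HEP14 than aged (2.27, adjusted p = 4.54e-06).

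Over all 13 listed genes of the Rag, Ragulator and folliculin complexes, all in the table, 2 were higher and 5 lower in aged against young ovaries, with a median difference of -1.13 SD. In aged HEP14 against aged ovaries 7 were higher and 2 lower, with a median of 1.55. The 5 lower calls in aged ovaries were near the 41.3% of all genes called lower, and the 7 higher calls under HEP14 stood against 33.2% of all genes. The genes called higher in aged against young were Flcn and Slc38a9, an arginine sensor of the lysosome, and the same pair was called lower in aged HEP14 against aged. The partners of folliculin did not follow Flcn. Fnip1 differed by 0.20 (adjusted p = 0.802) and 0.38 (adjusted p = 0.648), and Fnip2 by -1.13 (adjusted p = 0.0644) and 1.96 (adjusted p = 0.00399, or 0.0732 with a variance for each group).

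**Figure D3:**
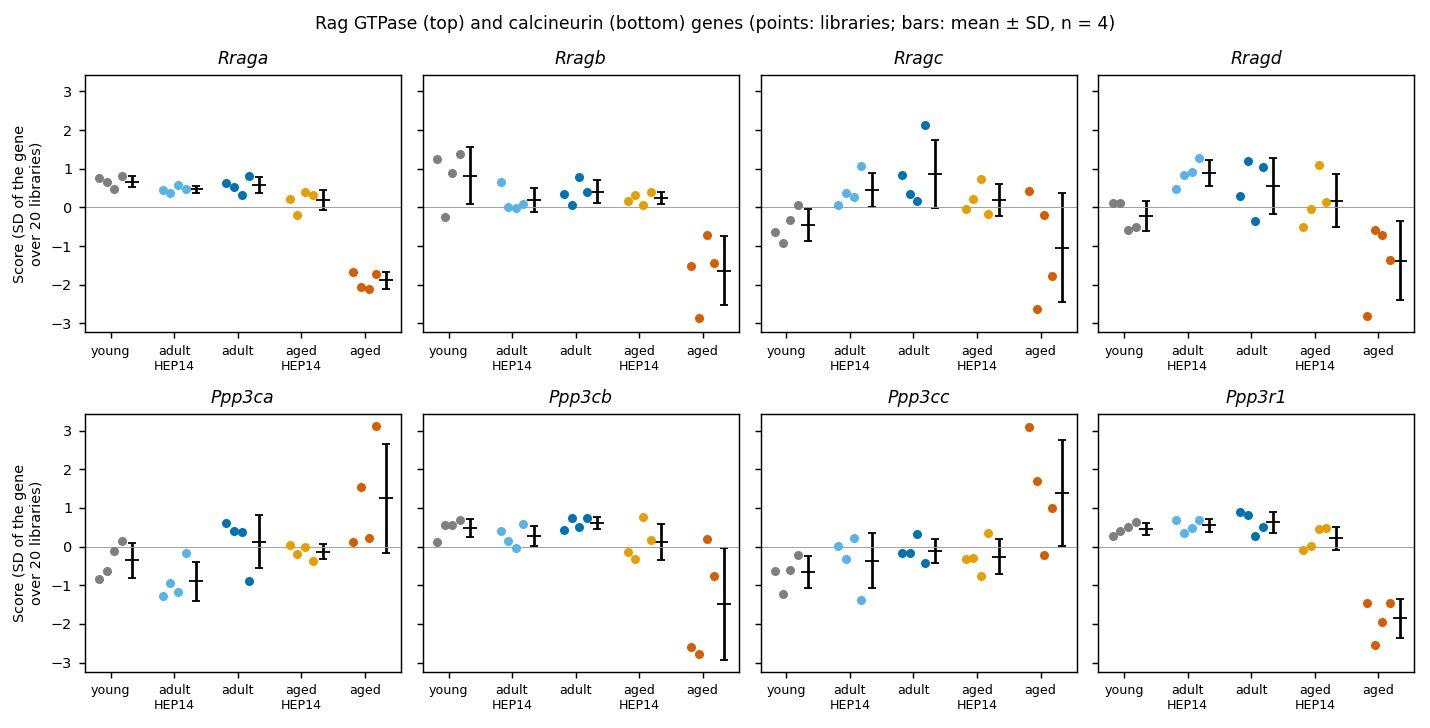
Scores of the 4 Rag GTPase genes and 4 calcineurin genes in each library (points) with the group mean and SD (bars, n = 4), in SD of the gene. Rraga and Ppp3r1 are low in all 4 aged libraries, Ppp3ca and Ppp3cc are high in some aged libraries, and Ppp3cb is lowest in aged libraries 1 and 2, at -2.60 and -2.78.

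Start-site windows of these genes were searched for the letters that TFEB is known to read. RefSeq windows spanned 300 bases (250 before to 50 after the start, GRCm38.p6), and both strands were searched. CACGTG was in 7.15% of 32851 windows of the table and TCACGTGA in 0.974%, the shorter motif being contained in the longer one. A still longer motif of 10 letters, which contains TCACGTGA, was also searched. It was in 0.326% of windows and in 0 of the 38 named genes with a window. Of the 8 measured genes, Rragc alone had a window with CACGTG. Zkscan3 had no window and is named only. Of all 38 named genes with a window, 10 held CACGTG and 4 held TCACGTGA (Clcn7, Ctsa, Mcoln1 and Telo2). These are counts of genes, which can have several windows (Tfeb has 3), whereas the percentages above are shares of windows. Clcn7, Ctsa and Lamp1 are also on the list of known lysosomal TFEB targets. The counts therefore cannot be set against those percentages, and enrichment was not tested. The 4 windows printed here are those of Rragc, its relative Rragb, the lysosomal calcium channel gene Mcoln1 and the lysosomal membrane protein gene Lamp1. They were picked with their scores known, so as to differ in direction or call while each holds the motif. Capitals mark CACGTG, and the strand is plus in each. The positions are chr4:123917183-123917482 for Rragc, chrX:153139708-153140007 for Rragb, chr8:3500269-3500568 for Mcoln1 and chr8:13158911-13159210 for Lamp1.
Rragc: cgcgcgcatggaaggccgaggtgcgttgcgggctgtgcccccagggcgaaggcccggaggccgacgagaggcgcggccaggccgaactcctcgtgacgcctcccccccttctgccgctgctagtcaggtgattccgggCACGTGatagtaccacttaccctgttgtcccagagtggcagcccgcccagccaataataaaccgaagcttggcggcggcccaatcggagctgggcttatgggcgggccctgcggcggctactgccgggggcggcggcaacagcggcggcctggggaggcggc
Rragb: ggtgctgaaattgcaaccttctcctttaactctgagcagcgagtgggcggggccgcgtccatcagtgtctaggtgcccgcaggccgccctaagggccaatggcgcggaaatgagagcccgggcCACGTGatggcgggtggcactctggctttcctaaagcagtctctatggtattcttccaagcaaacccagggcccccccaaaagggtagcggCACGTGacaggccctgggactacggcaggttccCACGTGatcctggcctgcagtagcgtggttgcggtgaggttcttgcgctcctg
Mcoln1: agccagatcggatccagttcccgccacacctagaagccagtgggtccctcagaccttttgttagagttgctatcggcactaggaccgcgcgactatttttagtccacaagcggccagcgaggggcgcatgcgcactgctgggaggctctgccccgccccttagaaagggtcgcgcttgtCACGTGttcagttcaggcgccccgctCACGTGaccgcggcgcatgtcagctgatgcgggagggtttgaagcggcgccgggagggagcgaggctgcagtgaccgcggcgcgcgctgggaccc
Lamp1: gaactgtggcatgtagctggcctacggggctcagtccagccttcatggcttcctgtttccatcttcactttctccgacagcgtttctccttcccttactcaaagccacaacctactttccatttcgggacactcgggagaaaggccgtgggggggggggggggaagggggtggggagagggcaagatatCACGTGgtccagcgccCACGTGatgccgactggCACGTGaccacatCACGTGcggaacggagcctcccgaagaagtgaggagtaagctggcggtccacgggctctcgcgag
Rragc held the motif 1 time, Rragb 3 times, Mcoln1 2 times and Lamp1 4 times. Mcoln1 was higher in aged than young ovaries, whereas Rragb and Lamp1 were lower and Rragc was not called. That contrast follows from the choice of the 4 genes and tests nothing. A match describes these letters and not a bound site.

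Gsk3b (chromosome 16, 38089001 to 38246084, plus strand, ENSMUSG00000022812), the kinase gene of the route assigned to HEP14, was low in aged ovaries. Its scores were -1.38, -2.55, -1.53 and -1.33 in aged libraries, against 0.55, 0.35, 0.26 and 0.16 in young and 1.23, 1.24, 0.53 and -0.39 in adult ones. Every aged library lay below every library of all other groups. The difference was -2.03 SD from young (SE 0.39, adjusted p = 0.000116) and -2.35 from adult (adjusted p = 2.89e-05). In aged HEP14 ovaries Gsk3b scored 0.076, 0.13, 0.90 and 0.57, which is 2.12 SD above aged (SE 0.39, adjusted p = 0.00011), a difference larger in size than that of 85.9% of all genes. The value was 1.75 with medians set equal and 1.85 without aged libraries 1 and 2. Against young ovaries the aged HEP14 difference was 0.091 (adjusted p = 0.905).

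Gsk3b belonged to a list of 21 other kinases, anchors and export factors of TFEB, 20 of them in the table. In aged against young ovaries 3 were higher and 14 lower, with a median of -2.10 SD, against 33.0% higher and 41.3% lower over all genes. In aged HEP14 against aged ovaries 16 were higher and 2 lower, with a median of 1.92, against 33.2% and 29.3%. Akt1, a kinase that phosphorylates TFEB, differed by -2.50 (adjusted p = 3.48e-07) and 1.97 (adjusted p = 8.97e-06). Genes for 14-3-3 proteins (Ywhab, Ywhae, Ywhag, Ywhah, Ywhaq and Ywhaz), which hold phosphorylated TFEB in the cytoplasm, were all among the lower calls in aged and the higher calls in aged HEP14 ovaries. The nuclear export receptor gene Xpo1 and the ubiquitin ligase gene Stub1 were among the higher calls in aged and the lower calls in aged HEP14 ovaries. Since the aged libraries enter both comparisons, the pairs of calls are not independent.

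Of the protein kinase C genes, the isoforms reported as targets of HEP14 are looked at here after their values were seen. Prkcd scored -2.63, -1.39, 0.20 and -0.96 in aged libraries and 1.44, 0.50, 1.10 and 1.47 in young ones, with every aged library below every young one, a difference of -2.32 SD (adjusted p = 0.00034). Under HEP14 in old mice it scored 0.45, 0.60, -0.63 and 0.024, and the difference from aged of 1.31 (adjusted p = 0.0276) was lost in 9 of the alternatives, including medians set equal (0.94, adjusted p = 0.0943) and leaving out aged library 1 (0.83, adjusted p = 0.123). Prkca did not differ beyond the threshold between aged and young (-0.53, adjusted p = 0.38) and was higher in aged HEP14 than aged (1.72, adjusted p = 0.00899), a call lost when only those 2 groups were fitted (adjusted p = 0.077). Aged library 1 was by far the lowest of all for Prkca, at -3.18.

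Ppp3cb (chromosome 14, 20499364 to 20546573, minus strand, ENSMUSG00000021816) encodes the beta catalytic subunit of calcineurin. Its scores were -2.60, -2.78, 0.19 and -0.76 in aged libraries and 0.13, 0.56, 0.56 and 0.68 in young ones. Aged libraries 1 and 2 were very low, library 4 was lower than young, and library 3 was within the young range. The difference from young was -1.97 SD (SE 0.48, adjusted p = 0.00106), but -0.77 (adjusted p = 0.0428) without libraries 1 and 2. The aged HEP14 libraries scored -0.13, -0.32, 0.76 and 0.17, a difference from aged of 1.61 (SE 0.48, adjusted p = 0.00644). Without aged libraries 1 and 2 that was 0.40 (adjusted p = 0.298), so the HEP14 call for Ppp3cb rested on those libraries. It was also lost when only those 2 groups were fitted (adjusted p = 0.0807).

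The 3 catalytic subunits of calcineurin did not move together. Ppp3ca scored 0.13, 1.54, 0.21 and 3.13 in aged libraries and -0.85, -0.62, -0.11 and 0.16 in young ones, a difference of 1.61 SD (adjusted p = 0.00826, or 0.0609 with only those 2 groups fitted). Ppp3cc scored 3.08, 1.70, -0.21 and 1.01 in aged and -0.62, -1.21, -0.59 and -0.22 in young libraries, a difference of 2.06 (adjusted p = 0.00125). Ppp3ca was highest in aged library 4 and Ppp3cc in aged library 1, and both were high in aged library 2, where Ppp3cb was lowest. In aged HEP14 against aged ovaries Ppp3ca was lower (-1.39, adjusted p = 0.024, lost without aged library 4 at -0.76, adjusted p = 0.125) and Ppp3cc was lower (-1.66, adjusted p = 0.008, lost without aged libraries 1 and 2 at -0.66, adjusted p = 0.22).

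Ppp3r1, which encodes the calcium-binding regulatory subunit, scored -1.47, -2.54, -1.95 and -1.47 in aged libraries and 0.28, 0.41, 0.51 and 0.63 in young ones, a difference of -2.31 SD (adjusted p = 8.56e-07), and it was 2.07 higher in aged HEP14 than aged ovaries (adjusted p = 6.39e-06). Mcoln1, the lysosomal channel whose calcium activates calcineurin, scored 2.04, 2.22, 1.05 and 1.13 in aged and -1.19, -1.16, -0.89 and -0.96 in young libraries, a difference of 2.66 (adjusted p = 1.97e-06), and -1.51 in aged HEP14 against aged (adjusted p = 0.00106). On ranks the HEP14 calls of Ppp3r1 (adjusted p = 0.0874), Mcoln1 (0.0961), Ppp3ca (0.0562) and Ppp3cc (0.0514) were all lost. Over the calcineurin list, 9 of 10 genes were in the table, 4 higher and 4 lower in aged against young ovaries (median -1.13) and 5 higher and 4 lower in aged HEP14 against aged ovaries (median 1.14), against 74.3% and 62.5% of all genes called. Cabin1, a calcineurin inhibitor, differed by 2.45 (adjusted p = 3e-07) and -2.19 (adjusted p = 2.83e-06). Wdr92, on the same strand and also measured, overlaps Ppp3r1 exons, so reads in the shared stretch cannot be assigned to either gene. Measured genes on the other strand overlap exons of Ppp3cc (Gm49417), Lamtor1 (Lrrc51), Sqstm1 (Mrnip), Stk11 (Cbarp) and Prkag1 (B130046B21Rik).

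Genes known as TFEB targets were called in both directions. Of 29 listed lysosomal targets 25 were in the table. In aged against young ovaries, where Tfeb was higher, 8 of these were higher and 10 lower (median -0.67 SD), a split close to that of all genes (33.0% higher and 41.3% lower), and in aged HEP14 against aged ovaries, where Tfeb was lower, 15 were higher and 6 lower (median 1.53), against 33.2% higher and 29.3% lower over all genes. Lamp1, a major lysosomal membrane protein, scored -0.88, -2.65, -1.85 and -1.72 in aged and -0.16, 0.019, -0.02 and -0.039 in young libraries, a difference of -1.73 (adjusted p = 4.97e-05), and was 2.36 higher in aged HEP14 than aged ovaries (adjusted p = 3.85e-06). The aged Lamp1 libraries were below all others. Clcn7, the lysosomal chloride transporter (2.69, adjusted p = 3.67e-07, and -1.66, adjusted p = 0.00011), and Ctsa, the protective protein cathepsin A (2.50, adjusted p = 2.95e-07, and -2.08, adjusted p = 4.83e-06), had the opposite signs to Lamp1. Ctsa and Lamp1 share exons with genes on the other strand.

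Of 14 listed targets in autophagy and metabolism 11 were in the table, 4 higher and 6 lower in aged against young ovaries (median -1.35 SD), and 7 higher and 3 lower in aged HEP14 against aged ovaries (median 1.67). Over all genes the shares were 33.0% higher and 41.3% lower, and 33.2% higher and 29.3% lower. Sqstm1, the autophagy receptor p62, was lower in aged than young (-1.35, adjusted p = 0.00135) and higher in aged HEP14 than aged ovaries (2.32, adjusted p = 1e-05). Ppara, a lipid catabolism factor, differed by -2.80 (adjusted p = 3.72e-07) and 1.47 (adjusted p = 0.000511). It scored -1.72, its lowest value over all libraries, in each of aged libraries 1, 2 and 4, and -1.29 in aged library 3. The aged spread of Ppara may therefore be too small, and with it both adjusted p-values. Vps11, a vacuole tethering subunit, differed by 2.59 (adjusted p = 7.02e-07) and -1.99 (adjusted p = 2.26e-05).

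In adult against young ovaries 5 of the 25 lysosomal targets were higher and 0 lower by limma (median 0.68 SD), namely Atp6ap1, Atp6v0d2, Atp6v1h, Ctsd and Tpp1. In aged HEP14 against young ovaries 6 were higher and 0 lower (median 0.74), namely Atp6ap1, Atp6v0d2, Clcn7, Ctsd, Neu1 and Tpp1. These comparisons share the young libraries. The background for a higher call was 2.75% and 5.38% of all genes, and the median of all genes was -0.006 and -0.012. Other markers were higher in the same comparisons. In adult and in aged HEP14 against young, 4 of 5 luteal, 3 of 4 theca and 4 of 7 lipid-laden and giant cell macrophage markers were called higher in each, and Atp6v0d2 belongs to the last of these lists. Of that list 1 marker was called lower in adult against young. Other lists held lower calls. Adipose had 5 of 5 in adult and 4 of 5 in aged HEP14 against young, and oviduct 4 of 4 and 2 of 4. Stroma had 2 of 5 and smooth muscle 1 of 4 in each, and oocyte 7 of 8 in aged HEP14 against young. The background for a lower call was 7.17% and 10.5% of all genes. The mean luteal score per library was 0.096 to 1.04 in aged HEP14 and 0.32 to 0.922 in adult, against -1.78 to -1.16 in young. The theca score was -0.073 to 0.941 in aged HEP14 and 0.305 to 0.651 in adult, against -1.81 to -0.625 in young, and the lipid-laden macrophage score was 0.062 to 1.42 in aged HEP14 and -0.546 to 0.237 in adult, against -1.05 to -0.717 in young. Their part in the lysosomal values was not tested. Without 1 library at a time the total of called lysosomal targets was 1 to 5 in adult against young and 3 to 7 in aged HEP14 against young.

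**Figure D4:**
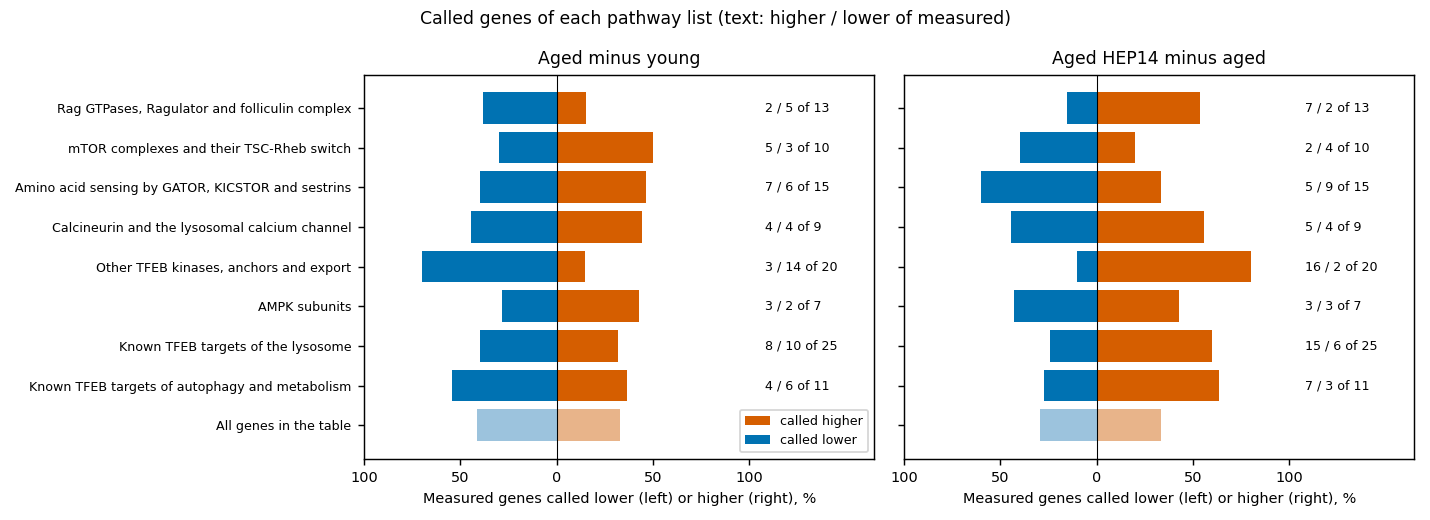
Share of the measured genes in each pathway list, and in the whole table, called higher (right of zero) or lower (left of zero), in percent, for aged minus young and aged HEP14 minus aged. The list of other TFEB kinases, anchors and export factors had 3 higher and 14 lower of 20 in the left panel and 16 higher and 2 lower in the right panel, and each of the other 7 lists plotted held called genes of both directions, as did the whole table.

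HEP14 in adult mice gave no call among the 8 genes. The limma test called 0 of 8, and 0 of 8 had an unadjusted p under 0.05, the smallest being 0.271. The background was 0.00567% of all genes, which is 1 gene, with 345 at an unadjusted p under 0.05. Tfeb scored -0.57, -0.31, -0.73 and -1.0 in adult HEP14 libraries and -0.20, 0.43, -0.87 and -0.41 in adult ones, a difference of -0.39 SD (SE 0.34). Gsk3b scored -0.11, 0.52, -0.21 and 1.0 in adult HEP14 and 1.23, 1.24, 0.53 and -0.39 in adult libraries, a difference of -0.35 (SE 0.39). The groups overlapped for each of the 8 (1.43% of all genes did not overlap), and their differences ran from -0.43 (Rragc, SE 0.54) to 0.26 (Flcn, SE 0.33). None of the 112 measured pathway genes was called either, and 1 of them, Ywhah, had an unadjusted p under 0.05 (0.00861). A missed threshold does not show that HEP14 left these transcripts unchanged in adult ovaries.

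The HEP14 difference itself was compared between ages. It differed between aged and adult mice for 4 of the 8 genes, against 47.3% of all genes, 24.9% higher and 22.4% lower. The aged minus adult value was -1.47 SD for Zkscan3 (SE 0.48, adjusted p = 0.0164), -2.08 for Flcn (SE 0.47, adjusted p = 0.00159), 2.47 for Gsk3b (SE 0.55, adjusted p = 0.00143) and 1.94 for Ppp3cb (SE 0.67, adjusted p = 0.0238). Zkscan3 lost the call with a variance for each group (adjusted p = 0.0522), and Ppp3cb lost it without aged library 2 (1.51, adjusted p = 0.0505), without aged HEP14 library 3 (adjusted p = 0.0508) and without aged libraries 1 and 2 (0.73, adjusted p = 0.157). On ranks Gsk3b kept the call, and Flcn (adjusted p = 0.142), Zkscan3 (0.223) and Ppp3cb (0.0974) lost it. Tfeb missed the threshold (-1.14, SE 0.49, adjusted p = 0.059), and so did Rptor (1.76, adjusted p = 0.0595, or 0.0466 with the replicate number as a block), Rragc (1.65, adjusted p = 0.0789) and Mtor (-0.66, adjusted p = 0.493). Tfeb was called with library medians set equal (-1.50, adjusted p = 0.0255) and Rptor without aged library 2 (2.41, adjusted p = 0.00259). Across all genes 4389 were called higher and 3955 lower in this comparison, or 3178 higher and 4645 lower with library medians set equal.

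Markers of several cell types were also called between the same groups. Over all genes, 33.0% were higher and 41.3% lower in aged against young. In aged HEP14 against aged, 33.2% were higher and 29.3% lower. All 8 oocyte markers were lower in aged than young ovaries, with 6 of 8 higher and 0 lower in aged HEP14 than aged ovaries. Their mean score per library was -2.21 to -0.725 in aged and -0.764 to 0.431 in aged HEP14, against 0.789 to 1.35 in young, and 2 of the markers sat at a shared lowest value in at least 1 aged library. All 6 measured T and NK cell markers were higher in aged than young and lower in aged HEP14 than aged ovaries, with mean scores of 0.383 to 2.21 in aged, -0.192 to 0.068 in aged HEP14 and -1.07 to -0.768 in young. B and plasma cell markers were higher for 5 of 6 in aged against young and lower for 3 of 6 in aged HEP14 against aged, with mean scores of -0.007 to 3.28 in aged, -0.394 to 0.276 in aged HEP14 and -0.629 to -0.5 in young. All 5 stroma markers were lower in aged than young and 1 was higher in aged HEP14 than aged, with mean scores of -2.2 to -0.094 in aged, -0.638 to 0.675 in aged HEP14 and 0.794 to 1.5 in young. Granulosa markers were lower for 2 of 7 in aged against young and higher for 4 of 7 in aged HEP14 against aged, with mean scores of -2.43 to 0.383 in aged, 0.191 to 0.808 in aged HEP14 and -0.07 to 0.78 in young. Markers of macrophages, in which Tfec is enriched, were called in both directions. Of 6 measured, 3 were higher and 2 lower in aged against young and 1 was lower in aged HEP14 against aged, with mean scores of -0.664 to 1.31 in aged, -0.724 to 0.795 in aged HEP14 and -0.331 to -0.015 in young. Of the 7 lipid-laden and giant cell macrophage markers, 5 were higher and 2 lower in aged against young, and 1 was higher and 1 lower in aged HEP14 against aged, with mean scores of -0.335 to 1.2 in aged. All 5 luteal markers were higher in aged than young and 1 was higher in aged HEP14 than aged, with mean scores of -0.102 to 0.75 in aged. Of 3 endothelial markers, 2 were lower in aged than young and 3 were higher in aged HEP14 than aged, with mean scores of -1.74 to -0.613 in aged, -0.134 to 1.47 in aged HEP14 and -0.223 to 0.216 in young. Adipose markers were lower for 4 of 5 and oviduct markers for 3 of 4 in aged against young. Neither list had a call in aged HEP14 against aged. Mean adipose scores were 0.439 to 2.44 in young and -0.592 to 1.05 in aged. Mean oviduct scores were -0.101 to 2.63 in young and -0.39 to 0.13 in aged. In whole ovaries, fewer cells of a type and less RNA per cell cannot be told apart, and the part of these markers in the Tfeb pathway differences was not tested.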

How the data were processed

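RNA-seq was made from total RNA of mouse ovaries, 20 libraries in 5 groups of 4, grouped by their titles. The authors deposited 1 table of gene scores (expression centred and scaled per gene to mean 0 and SD 1 over the 20 libraries, from the values), with no counts, so depth is unknown and no count test was possible. The submitters' processing notes name DESeq2 1.20.0, featureCounts 1.5.0-p3 and HISAT2 2.0.5; settings, strand and genome build: not given in the sources used here. Of 17651 gene identifiers 17630 matched GENCODE mouse release 21, whose GRCm38 coordinates are printed and need not be the authors' build. Group differences were tested with limma 3.58.1 in R 4.3.3 on all 20 libraries (1 coefficient per group, empirical Bayes without trend), with Benjamini-Hochberg adjustment over all genes, two-sided, and calls at an adjusted p of at most 0.05; the procedure was tested on simulated data. Means are given ± SD with n = 4.

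The genes and lists were chosen with earlier results of these data known. Named genes are the 10 listed genes, fixed partners and paralogs, the 2 genes of each pathway list with the smallest F test p across groups, and the 5 genes of the table most correlated with Tfeb; Prkca, Prkcd, and genes given by name within a count were added after their values were seen. Gsk3a, Rheb, Tfe3 and Mitf are not analysed here, and some genes that the rule names are not reported here. Alternatives were library medians set equal, only the contrasted groups, 1 variance per group, the replicate number as a block, a filter on genes with a shared lowest value (tolerance 1e-09), a robust prior, ranks, leaving out each library and, chosen after seeing the data, leaving out aged libraries 1 and 2. The labels name no pairs, so replicate numbers were not taken as pairs. For same-numbered libraries the r of deviations from group means was -0.188 to 0.155 over the comparisons, which cannot exclude pairing.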

Additional observations from a re-analysis of the deposited data

Results flagged for a closer look

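Among the 8 genes, 4 of 40 groups of 4 libraries held 1 library far from the other 3, by a gap whose share of the group's range exceeded Dixon's 95% critical value. Chance flags about 1 in 20 groups. Tfeb was 2.40 in aged library 1, against 1.33 to 1.49 in the other aged libraries. Rptor was 0.63 in aged library 2, against -2.13 to -1.82 in the others. Gsk3b was -2.55 in aged library 2, against -1.53 to -1.33 in the others. Flcn was -0.92 in young library 2, against -0.35 to -0.31 in the others.

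The HEP14 difference in aged mice minus that in adult mice passed the threshold (limma, adjusted over all genes) for 4 genes. It was -1.47 SD for Zkscan3, -2.08 for Flcn, 2.47 for Gsk3b and 1.94 for Ppp3cb, in a comparison where 47.3% of all genes were called.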

How the results depend on the processing

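Of 936 values of the 8 genes under the alternatives, 9 changed sign, none of them called on the scores as deposited. Without single libraries, Zkscan3 ran from -0.24 to 0.23 and Mtor from -0.67 to 0.13 in adult HEP14 against adult, Rptor from -0.034 to 0.56 in adult against young, and Rptor from -0.47 to 0.024 and Gsk3b from -0.071 to 0.21 in aged HEP14 against young. Mtor was at 0.0007 without aged libraries 1 and 2 in the comparison of HEP14 differences between ages, and Rragc at 0.13 on ranks in aged against young. Among partners, none of the following was called on the scores as deposited. Fnip1 ran from -0.25 to 1.05 in aged against young without single libraries. In aged HEP14 against aged it ran from -0.47 to 0.83 without single libraries. There it was -0.085 on ranks and -0.22 without aged libraries 1 and 2. In aged against young, Rictor ran from -0.56 to 0.72 and Prkca from -0.96 to 0.19 without single libraries. Rictor was -0.76 in aged HEP14 against aged without aged libraries 1 and 2.

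The number of the 8 genes called in adult against young (1) was 3 with 1 variance per group and 3 on ranks, and 0 to 1 without single libraries. In aged HEP14 against aged (6) it was 2 on ranks, and 5 to 7 without single libraries. In aged HEP14 against young (1) it was 2 with only those groups fitted, 3 with 1 variance per group, 3 on ranks, and 1 to 2 without single libraries. For the comparison of HEP14 differences between ages (4) it was 1 on ranks, and 3 to 6 without single libraries. In aged against young it was 7 without any single library, and in aged against adult 7 to 8. Over all genes, adult against young (1751) gave 3789 with only those groups fitted, 5174 with 1 variance per group, 784 with the filter, 3074 on ranks, and 628 to 1475 without single libraries. Aged HEP14 against aged (11031) gave 6428 on ranks. Adult HEP14 against adult (1) gave 0 with only those groups, the block, the filter or ranks, and 0 to 4 without single libraries. Aged HEP14 against young (2798) gave 5576 with only those groups, 6454 with 1 variance per group, 1786 with the filter, 6166 on ranks, and 1520 to 3318 without single libraries. The comparison of HEP14 differences (8344) gave 1902 on ranks. The cause of these changes was not tested. On ranks, Rraga, Mcoln1, Ppp3r1, Akt1, Cabin1, Clcn7, Ctsa, Ppara, Prkag1, Stk11 and Vps11 also lost their call in aged HEP14 against aged, and Tsc1, Lamp1 and Sqstm1 in aged against young.

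With the replicate number as a block, the 8 genes gave 7 calls in aged against young, 6 in aged HEP14 against aged and 5 in the comparison of HEP14 differences, where Rptor was added; no other call of the 8 changed. Same-numbered libraries correlated best with their own number for at most 2 of 4 in any comparison, which cannot show whether libraries were paired by design. Scores hide expression levels, so what depth limits cannot be stated.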
